A study of Mus musculus with 6 samples.

Results

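The regions described here are CTCF sites that were listed as wide intervals in both quiescent (QSC) and freshly isolated (FISC) mouse muscle stem cells. A site was taken where exactly 1 interval of the QSC peak list overlapped exactly 1 interval of the FISC list by 1 bp or more on an autosome. The sites were selected on the widths of their intervals. Of 7179 such one-to-one sites, 1428 (19.9%) were at least 377 bp wide in QSC and at least 440 bp wide in FISC, and these are called wide shared sites. Both limits are the 75th percentile of the width of all intervals in the respective list, rounded down to whole bp. The 1428 sites made up 7.65% of the 18669 autosomal QSC intervals and 8.34% of the 17124 autosomal FISC intervals. The other 5751 one-to-one sites comprised 1704 that were wide in QSC only, 1327 that were wide in FISC only and 2720 that were narrow in both.

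CTCF is a zinc finger protein that recognises a long DNA motif. Together with the ring-shaped cohesin complex it anchors chromatin loops and marks many boundaries between topological domains. Many CTCF sites are known to be occupied in most cell types, while others vary between cell types. In skeletal muscle the stem cells, also called satellite cells, rest in a quiescent state, and taking them out of the tissue is known to start their activation.

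Chromatin of C57BL/6 mice at postnatal day 38 that carried the Pax7-nGFP reporter, a nuclear green fluorescent protein under the control of the satellite cell gene Pax7, was sonicated and immunoprecipitated for CTCF. This strain, age and genotype were the same for quiescent and freshly isolated cells, and each state had 2 CTCF libraries and 1 input library. The labels do not say whether the 2 libraries of a state came from separate animals, or how the cells were kept in the quiescent state. The authors deposited 1 list of intervals per state, 19403 in QSC and 17520 in FISC, without height, score or p-value. Read depth is therefore unknown, no value has a replicate error, and no difference below could be set against a replicate spread or tested. Intervals printed beside shares are 95% Wilson intervals, and those beside medians are 95% binomial order-statistic intervals. Those beside differences in percentage points are 95% Newcombe intervals, built from the Wilson intervals of the 2 shares. They cover counting error only, and sites are not replicates. All positions are mm9 coordinates that count from 1. They carry no gene names and no sequence, because no mm9 annotation or genome was used here.

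Widths chose these sites and are given as a description. The QSC intervals of the wide shared sites ran from 377 to 1449 bp with a median of 476 bp, and 25% of them were 564 bp or wider. The FISC intervals ran from 440 to 1319 bp with a median of 514.5 bp. At the other one-to-one sites the medians were 334 bp in QSC and 390 bp in FISC. FISC was the wider of the 2 intervals at 65.1% (62.5 to 67.5) of wide shared sites and at 78.7% (77.1 to 80.2) of sites narrow in both. The other one-to-one sites pooled had 63.3%, a share that the rule shapes. It joins sites wide in FISC only, where the limits make it 100%, and sites wide in QSC only, with 10.3%. Width in one list said little about width in the other. The Spearman rho between QSC and FISC widths was 0.188 over all 7179 sites and 0.179 within the 1428, a description across sites of 2 lists. Of the 3132 sites past the QSC limit, 45.6% were also past the FISC limit, against 32.8% of the 4047 sites under the QSC limit. Many sites lay close to the limits. Among sites that met the other limit, 98 members were 377 to 386 bp wide in QSC and 88 sites were just outside at 367 to 376 bp. On the FISC side, 116 members were 440 to 449 bp wide and 126 sites just outside were 430 to 439 bp wide.

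**Figure D1:**
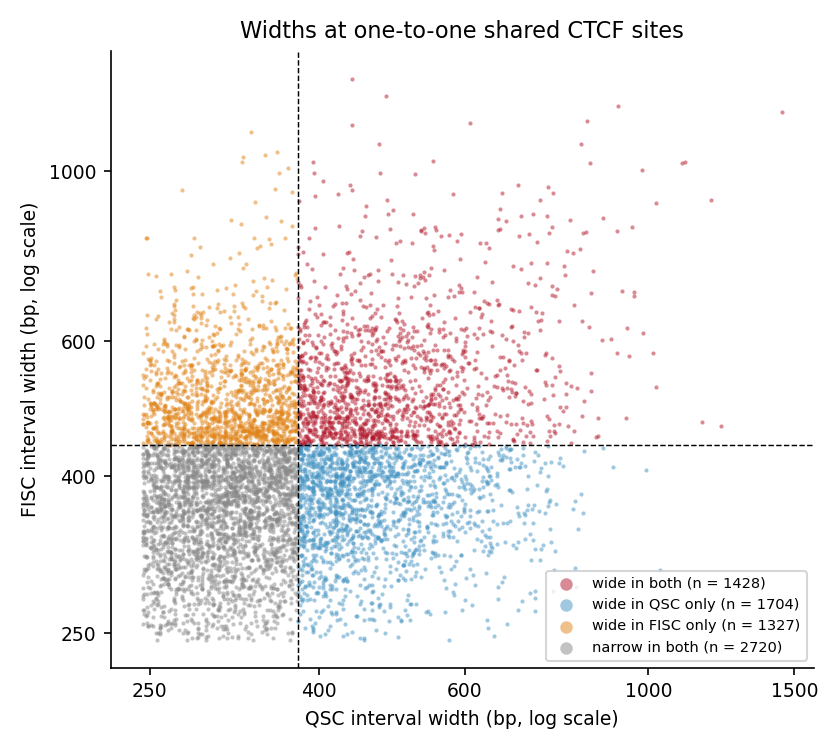
Width of the QSC interval (horizontal axis, bp, log scale) against width of the FISC interval (vertical axis, bp, log scale) at 7179 one-to-one shared sites, 1 point per site, coloured by class. Dashed lines mark the limits of 377 and 440 bp. The 1428 sites wide in both lists fill the upper right part and form no cloud apart from the rest, and only 3 of them reached 1000 bp in both lists.

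The 5 members with the widest narrower interval stood in both lists as intervals of about 1 kb with nearly the same centre. Ranked by the narrower of the 2 intervals, the first was chr11:95119618-95121066, 1449 bp in QSC and 1193 bp in FISC, with the FISC interval wholly inside the QSC interval. The second, chr1:193399195-193400300, had a QSC width of 1106 bp and a FISC width of 1029 bp. At chr2:32612368-32613464 the widths were 1097 and 1024 bp. These were the 3 members of 1000 bp or more in both lists. Next came chr15:89203748-89204751, with 982 bp in QSC and 1004 bp in FISC, and chr11:53550283-53551471, with 1189 and 918 bp. The midpoints of these 5 pairs lay 26, 21.5, 10.5, 1 and 59.5 bp apart, in the same order. All 5 offsets were under the median of 64 bp over the 1428 members. That does not hold for wide members at large, since the widest 357 by mean width had a median offset of 88 bp. The 5 sites were not set in equally dense surroundings. The nearest other interval of either list was 0.779 kb from the last of them, a FISC-only peak, and 156 kb from the chromosome 15 site.

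The 2 intervals of a wide shared site were centred farther apart in bp than those of the other one-to-one sites. Relative to their width they were closer together than those of the other sites pooled, but not clearly so against each class. The median distance between the midpoints was 64 bp (59 to 69) at wide shared sites and 52 bp (50.5 to 53.5) at the others. The median was the larger one on 17 of 19 autosomes, all but chromosomes 11 and 16. As a percentage of the mean of the 2 widths the direction turned, with 12.3% (11.5 to 13.4) at wide shared sites and 14.0% (13.6 to 14.4) at the others, and wide shared sites had the smaller value on 15 of 19 autosomes. Wide intervals leave more room for an offset, and the rule used the widths. An offset of 100 bp or less was found at 992 of 1428 wide shared sites, or 69.5% (67.03 to 71.8), with 77.4% (76.3 to 78.5) at the others and 75.8% over all 7179 sites. An offset over 200 bp was found at 99 of them, 6.93% (5.73 to 8.37), with 3.93% at the others and 4.53% over all sites.

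The offset in bp went with the QSC width more than with the FISC width. Its median was 66 bp (63 to 69.5) at sites wide in QSC only and 53.5 bp (49.5 to 57) at sites wide in FISC only. Sites narrow in both lists had 44.5 bp (43 to 46). In bp, wide shared sites thus lay beside the sites wide in QSC only, with intervals that overlap. As a percentage of the mean width they did not, since sites wide in QSC only had a median of 15.7% (15.1 to 16.6). Sites wide in FISC only had 13.1% (12.2 to 14.0) and sites narrow in both 13.4% (12.7 to 13.9). Both of these intervals overlap that of the wide shared sites. The percentage did not fall steadily with width. With all one-to-one sites split into 5 groups by mean width, its median was 15.3% in the narrowest group. It was 12.4% in the second and 15.0% in the widest. The offset had no preferred side, since the FISC midpoint was at the higher coordinate at 731 of 1428 wide shared sites, or 51.2% (48.6 to 53.8).

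**Figure D2:**
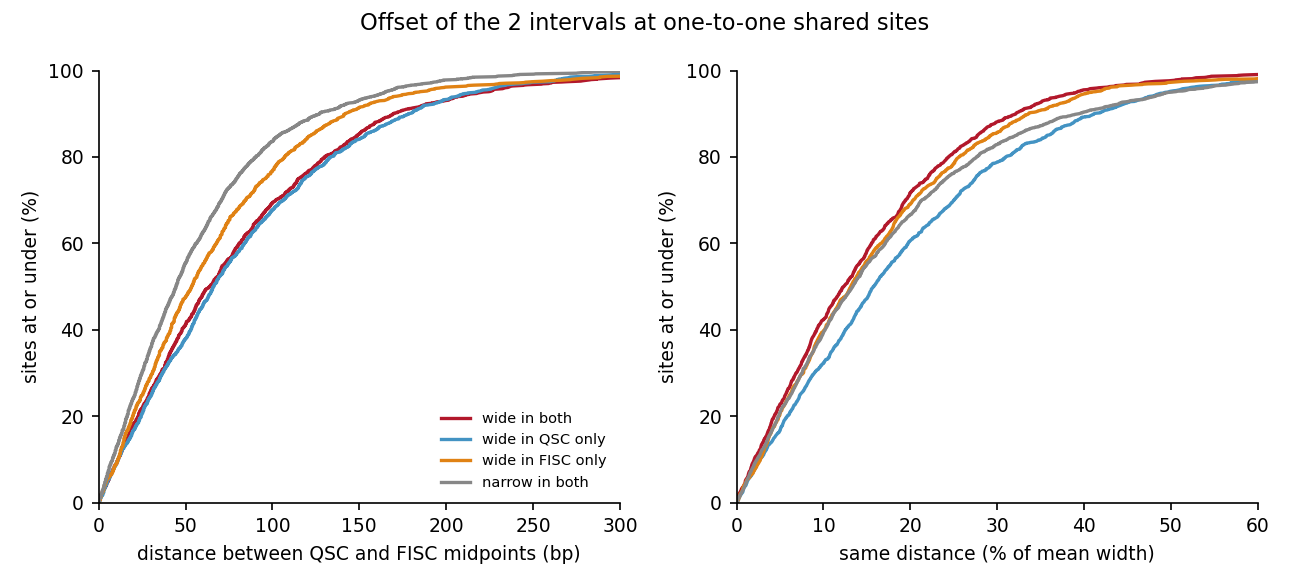
Cumulative share of one-to-one shared sites (vertical axis, %) by the distance between the QSC and FISC midpoints, in bp on the left and as a percentage of the mean of the 2 widths on the right, with 1 line per class. On the left the line of sites wide in both (median 64 bp) runs beside that of sites wide in QSC only (66 bp) and below that of sites narrow in both (44.5 bp), and on the right it lies above the other lines over most of the range.

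Most wide shared sites covered largely the same stretch of DNA in both lists. The median overlap was 425 bp (419 to 429). Taken as a percentage at each site, the median overlap was 90.4% of the QSC width and 82.0% of the FISC width. The intervals overlapped by 50% or more of both widths at 1363 of 1428 sites, or 95.4% (94.2 to 96.4), with 89.8% over all sites. Overlap and containment are built from the widths that the rule used, and sites wide in 1 list only have unequal widths by choice, so these shares are a description. Sites wide in QSC only had 87.2%, sites wide in FISC only 80.6% and sites narrow in both 92.9% (91.8 to 93.8). The QSC interval lay wholly inside the FISC interval at 404 sites, 28.3% (26.02 to 30.7), with 32.5% at sites narrow in both and 32.6% over all sites. The FISC interval lay inside the QSC interval at 132 sites, 9.24% (7.85 to 10.9), with 4.49% (3.77 to 5.33) at sites narrow in both and 12.2% over all sites, which include the 36.7% of sites wide in QSC only. At the remaining 892 sites each interval reached beyond the other at 1 end. The median distance between starts was 70.5 bp (67 to 75) and that between ends was 75 bp (71 to 80).

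Members with the largest offsets included some that overlapped by a few bp only. The largest offset, 609 bp, was at chr7:118225679-118226904, where a FISC interval of 513 bp ended 8 bp inside a QSC interval of 721 bp. The next, 530 bp, was at chr17:65962056-65963125, with an overlap of 10 bp between intervals of 465 bp in QSC and 615 bp in FISC. At chr7:19946507-19947524 the offset was 467 bp with 84 bp shared. The next 2, chr6:90556461-90557791 with 449.5 bp and chr11:100223670-100224807 with 428 bp, paired a FISC interval of over 1 kb (1155 and 1027 bp) with a QSC interval of 608 and 393 bp, and shared 432 and 282 bp. In all, 65 of the 1428 members shared less than 50% of at least 1 of the 2 widths. At the other end, 7 members (0.490%) had identical midpoints, with 0.313% at the other one-to-one sites and 0.348% over all sites. The interval of that difference, 0.177 percentage points (-0.134 to 0.708), includes 0. The first of the 7 by position was chr2:80421091-80421912, where a QSC interval of 448 bp lay centred in a FISC interval of 822 bp. The next 4 were chr5:143667166-143667737, chr8:109948747-109949372, chr9:20608620-20609066 and chr11:86707632-86708129. At the chromosome 8 site it was the FISC interval, 444 bp, that lay inside the QSC interval, 626 bp.

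Wide shared sites stood in denser surroundings than the other one-to-one sites. Distances here run between the nearest edges of the intervals. The next one-to-one site of any width was a median of 35.9 kb away (32.9 to 40.5), against 46.4 kb (43.7 to 48.3) for the other one-to-one sites. The median was the shorter one on 14 of 19 autosomes. On chromosomes 12, 13, 16 and 17 it was the longer one, and on chromosome 19 both were 35.4 kb. A one-to-one site lay within 10 kb of 323 wide shared sites, 22.6% (20.5 to 24.9), with 18.7% (17.8 to 19.8) at the others and 19.5% over all sites. The nearest other QSC interval was 18.1 kb away (16.8 to 19.8) at wide shared sites and 22.9 kb (21.7 to 23.9) at the others. For the nearest other FISC interval these medians were 14.1 kb (12.7 to 15.9) and 18.3 kb (17.4 to 19.1). Any other interval of either list lay within 10 kb of 716 wide shared sites, 50.1% (47.5 to 52.7), with 44.2% at the others and 45.4% over all sites.

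The shorter spacing was not seen at the closest range. Another interval within 1 kb was listed at 132 wide shared sites, 9.24% (7.85 to 10.9), with 9.04% (8.33 to 9.81) at the others and 9.08% over all sites. Among the classes, sites wide in FISC only came closest to the wide shared sites, with a median of 40.2 kb (35.8 to 44.3) to the next one-to-one site. Sites wide in QSC only and sites narrow in both had 48.3 kb (43.7 to 52.7) and 48.1 kb (44.8 to 51.5). Those intervals overlap each other, and that of sites wide in FISC only overlaps that of the wide shared sites.

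**Figure D3:**
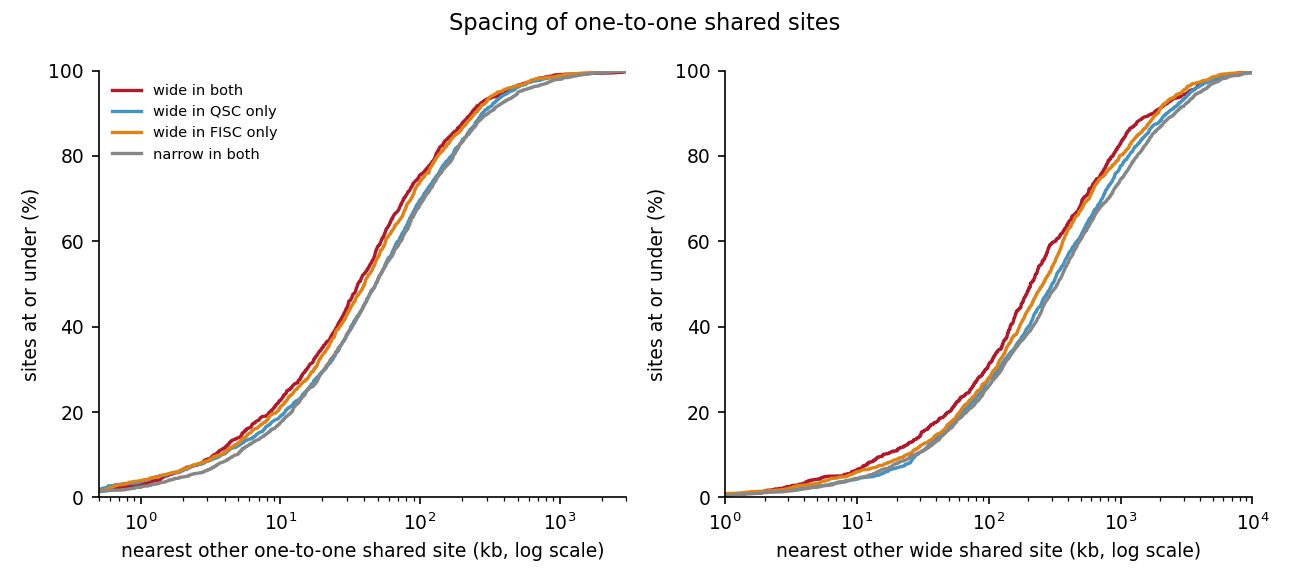
Cumulative share of one-to-one shared sites (vertical axis, %) by distance to the nearest other one-to-one site (left, kb, log scale) and to the nearest other wide shared site (right, kb, log scale), with 1 line per class. Sites wide in both lie to the left of the other lines over most of both panels, with medians of 35.9 kb and 207 kb.

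A state-only peak lay within 10 kb of 511 wide shared sites, 35.8% (33.3 to 38.3), with 32.8% (31.6 to 34.0) at the others and 33.4% over all sites. The difference of 3.01 percentage points (0.273 to 5.80) had the same direction on 13 of 19 autosomes. It was 2.17 points (-0.181 to 4.64) within 5 kb, and 1.32 points (-2.99 to 5.86) with only the widest 20% of one-to-one partners in each list counted as wide, and both intervals include 0. FISC-only peaks stood within 10 kb of 357 wide shared sites, 25% (22.8 to 27.3), with 21.9% (20.8 to 23.0) at the others and 22.5% over all sites. QSC-only peaks stood within 10 kb of 211 wide shared sites, 14.8% (13.03 to 16.7), with 13.8% (12.9 to 14.7) at the others and 14% over all sites, and the interval of that difference, 1.0 percentage points (-0.967 to 3.12), includes 0. Within 250 kb on either side a wide shared site had a mean of 4.67 FISC-only and 3.26 QSC-only peaks, and another one-to-one site had 4.08 and 3.01. The medians were the same in both groups, 4 FISC-only and 3 QSC-only peaks. Sites wide in FISC only had means of 4.39 and 3.09. The closest other interval of either list was FISC-only for 530 wide shared sites, QSC-only for 398 and shared for 500 (37.1%, 27.9% and 35.0%). At the other one-to-one sites these shares were 38.5%, 29.4% and 32.1%.

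Wide shared sites were also nearer to each other. The next wide shared site was a median of 207 kb (191 to 232) from a wide shared site and 301 kb (288 to 321) from another one-to-one site, and the former was shorter on 16 of 19 autosomes. One lay within 20 kb of 155 members, 10.9% (9.34 to 12.6), with 7.86% (7.19 to 8.58) at the others and 8.46% over all sites. Among the other classes, sites wide in FISC only were the most similar. They had a median of 259 kb (228 to 288) and a share of 8.89% (7.48 to 10.5) within 20 kb. Both intervals overlap those of the wide shared sites. Sites wide in QSC only had a median of 304 kb and sites narrow in both 333 kb. Adjacent sites were not clearly alike in width. The nearest one-to-one site was itself wide for 310 members, 21.7% (19.6 to 23.9), with 19.9% (18.9 to 21.0) at the others and 20.3% over all sites. The difference, 1.80 percentage points, had an interval from -0.515 to 4.23 that includes 0. Sites that were each other's nearest entered from both sides, which this interval does not allow for, and likeness was not tested.

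Runs of wide shared sites held at most 3 members. Joining members whose edges lay within 20 kb gave 67 pairs and 7 triplets, and 1273 members (89.1%) stood alone. Runs of the other one-to-one sites were not counted, so run length is not compared between the groups. The tightest triplet, chr10:126601896-126615571, spanned 13.7 kb and held no other interval of either list. Its 3 QSC intervals were 409, 486 and 766 bp wide and its 3 FISC intervals 451, 624 and 511 bp. The second, chr10:24017398-24032542, began with members only 0.104 kb apart, 621 and 589 bp wide in QSC and 492 and 485 bp in FISC, and had its last member 13 kb farther on. The third triplet, chr9:120495507-120512417, spanned 16.9 kb and held 4 intervals of each list. The fourth, chr4:151512527-151540110, spanned 27.6 kb, and 2 FISC-only peaks stood between its members. The fifth, chr11:98203823-98234252, spanned 30.4 kb with 4 intervals of each list and no state-only peak. Within 1 kb of each other lay 5 pairs of members, and such pairs were not counted among the other sites.

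Isolated members were few. No other interval of either list lay within 100 kb of 29 wide shared sites on 14 autosomes, 2.03% (1.42 to 2.90), with 3.50% (3.05 to 4.0) at the others and 3.2% over all sites. The most isolated was chr5:58110706-58111213, 396 bp wide in QSC and 508 bp in FISC. Its nearest other interval was a FISC-only peak 411 kb away, and the next one-to-one site was 3564 kb away. The other 4 were chr13:13981617-13982134, chr8:131465044-131465652, chr2:20197748-20198379 and chr12:87743631-87744088, with 263, 231, 218 and 211 kb to the nearest interval. All 5 had QSC intervals of 396 to 449 bp and FISC intervals of 450 to 518 bp, so each was narrower than the median member in QSC. In FISC, 4 of the 5 were under the median, and the chromosome 13 site with 518 bp was over it.

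Wide shared sites were spread over all 19 autosomes at similar shares. The share of one-to-one sites that were wide in both lists was highest on chromosome 15 with 23.6% (19.4 to 28.4, 80 of 339 sites), chromosome 8 with 22.5% (18.7 to 27.0, 87 of 386) and chromosome 14 with 22.3% (17.7 to 27.8, 58 of 260). It was lowest on chromosome 13 with 15.5% (11.5 to 20.6, 38 of 245), chromosome 1 with 15.8% (12.8 to 19.3, 75 of 475) and chromosome 3 with 16.4% (12.9 to 20.7, 57 of 347). The interval of chromosome 1 was the only one of 19 that did not include the 19.9% over all autosomes. Along the chromosomes, divided into 5 equal parts of their listed span, the share ran from 18.0% (16.0 to 20.1) in the middle part to 21.3% (19 to 23.7) in the first. The last part held the most members, 432, or 30.3% of them, and also 28.5% of all one-to-one sites.

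The share of wide sites was higher in windows rich in one-to-one sites than in windows with few. In windows of 1 Mb with 1 one-to-one site, 15.5% (12.2 to 19.6) of the sites were wide in both lists. The share was 14.3% (12.4 to 16.4) in windows with 2 to 3 sites, 18.9% (17.5 to 20.4) with 4 to 7, and 23.7% (22.2 to 25.2) with 8 or more. Peaks outside the one-to-one set gave a like picture. With no FISC-only peak within 250 kb, 13.6% (10.7 to 17.2) of 433 one-to-one sites were wide in both lists, and with 6 or more, 24.0% (22.2 to 25.9) of 2068 were. With QSC-only peaks the share went from 14.1% (11 to 17.8) of 398 sites to 22.9% (20.1 to 26.0) of 786. Whether read depth or signal moved with this density was not tested, since the lists hold neither.

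**Figure D4:**
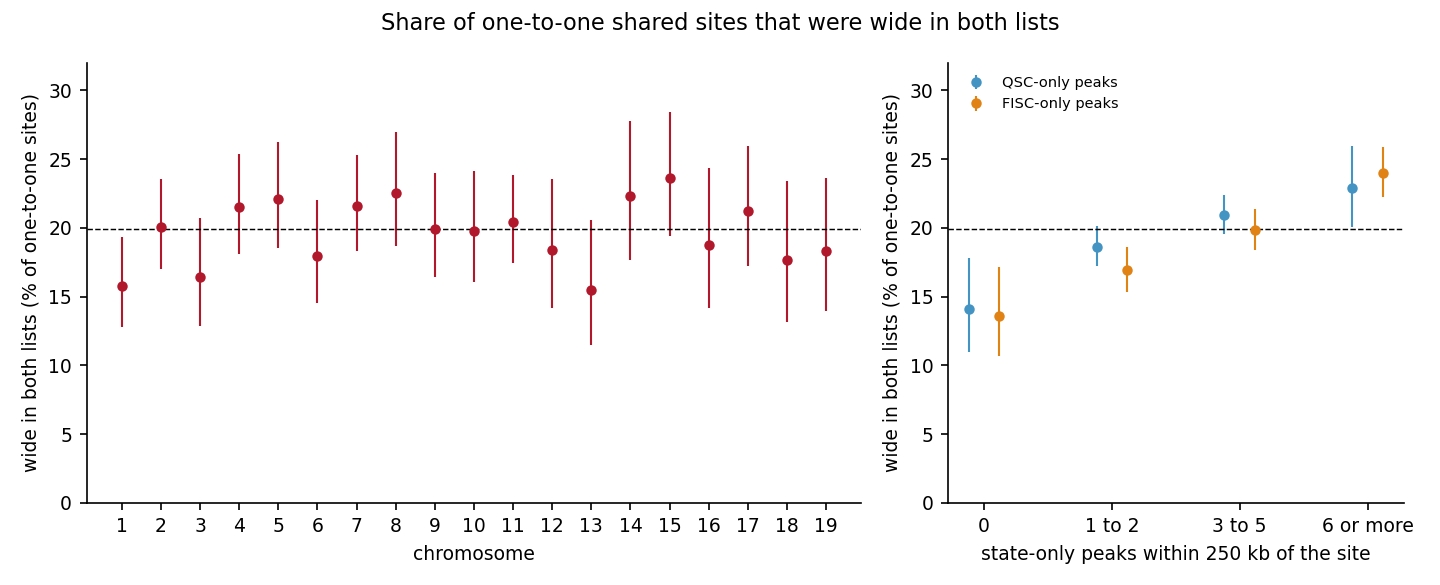
Share of one-to-one shared sites that were wide in both lists (vertical axes, %), by autosome on the left and by number of QSC-only or FISC-only peaks within 250 kb on the right. Points are shares, bars are 95% Wilson intervals and the dashed line is the 19.9% over all autosomes. The autosomes range from 15.5% to 23.6%, and on the right the share goes from 14.1% (QSC-only) and 13.6% (FISC-only) with no such peak to 22.9% and 24.0% with 6 or more.

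Counted in windows of 1 Mb, most windows with a member held 1 member, and a few held 7 or 8. Of 1646 windows with a one-to-one site, 783 (47.6%) held a wide shared site, and 449 of those held a single one. One-to-one sites of any width, which are more numerous, stood singly in 373 of the 1646 windows. No count was made for the other one-to-one sites alone, so these numbers do not measure dispersion. Windows with 4 or more wide shared sites numbered 79 (4.80% of the 1646) and held 382 members, 26.8% of all. These windows are defined by their number of members. The share of all one-to-one sites that lay in them is not given here, so the 26.8% does not measure concentration. The 8 richest windows, with 7 or 8 members each, held 60 members among 162 one-to-one sites, and were chosen for that number. Windows with 8 members lay on chromosomes 2 (32 to 33 Mb), 8 (73 to 74 Mb), 10 (80 to 81 Mb) and 15 (76 to 77 Mb). They differed in how much else they held. The chromosome 10 window had 28 one-to-one sites with 14 QSC-only and 23 FISC-only peaks. The chromosome 15 window had 17 one-to-one sites with 9 QSC-only and 12 FISC-only peaks, and the chromosome 2 window had 22 with 4 and 9. The chromosome 2 window also holds one of the 3 members of 1000 bp or more in both lists, chr2:32612368-32613464. Windows with 7 members lay on chromosomes 4 (151 to 152 Mb), 7 (52 to 53 Mb), 10 (79 to 80 Mb) and 11 (98 to 99 Mb). On chromosome 4 they were 7 of 14 one-to-one sites (26.8% to 73.2%), the highest share among the 8 windows, and this window and the one on chromosome 11 each held 1 of the 5 tightest triplets.

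**Figure D5:**
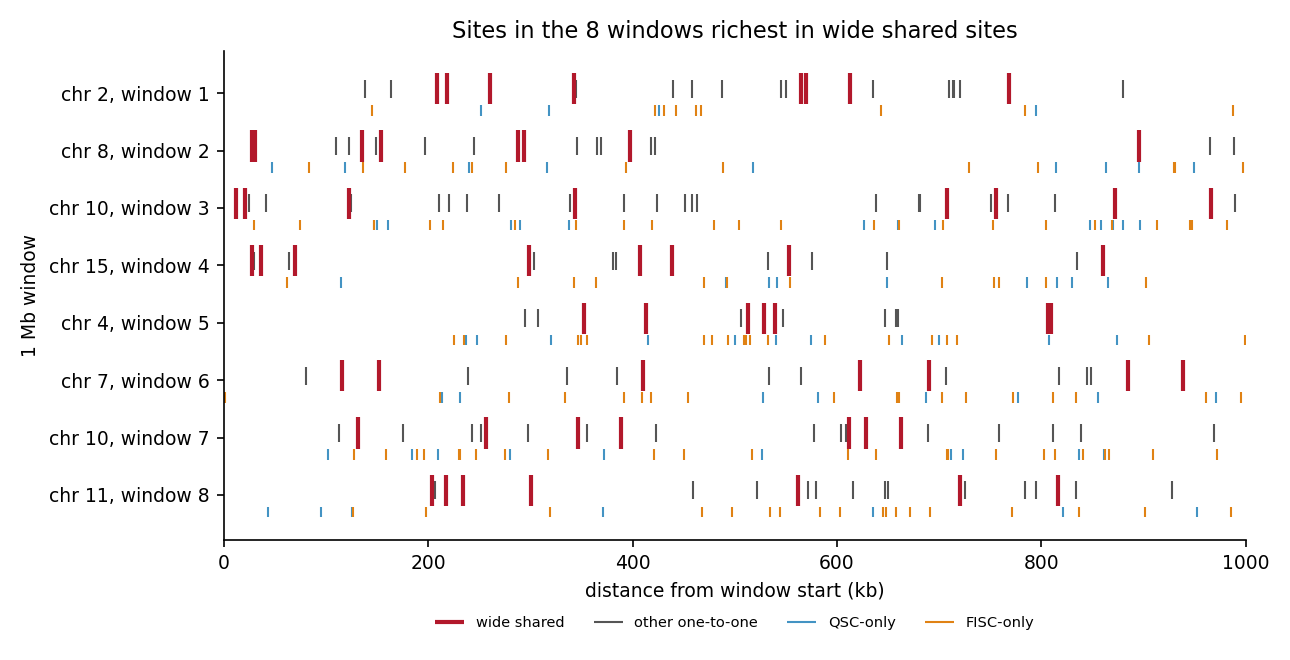
Midpoints of sites in the 8 windows of 1 Mb with the most wide shared sites, 1 row per window, with distance from the window's start in kb on the horizontal axis. Tall red lines are wide shared sites, grey lines the other one-to-one sites, and short lines below each row QSC-only and FISC-only peaks, while shared peaks that were not one-to-one are left out. In each row the 7 or 8 wide sites stand among other one-to-one sites and state-only peaks.

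The wide shared sites also differed among themselves. They were split into 4 groups by the mean of the 2 widths. The narrowest 353 members (409.5 to 462 bp) had a median midpoint offset of 46.5 bp (40 to 55.5). The widest 357 (571 to 1321 bp) had 88 bp (76 to 99). As a percentage of the mean width the median offset was also larger in the widest group, 13.6% against 10.5% in the narrowest. The next one-to-one site lay 41.3 kb (33.1 to 48.5) from the narrowest and 30.6 kb (25.7 to 35.8) from the widest group. The groups between had 45.2 kb and 34.4 kb, so the median did not fall steadily, and the intervals of the narrowest and widest group overlap. State-only peaks lay within 10 kb of 37.7% (32.8 to 42.8) of the narrowest and 32.2% (27.6 to 37.2) of the widest members. These intervals overlap as well, and the groups between had 35.2% and 38.1%. The FISC interval was the wider one at 87.8% of the narrowest and 48.7% of the widest group, a comparison that the unequal width limits take part in.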

How the data were processed

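CTCF ChIP-seq libraries of quiescent and freshly isolated muscle stem cells (2 per state, with 1 input each) are represented by 1 peak list per state. The authors deposited chromosome, start and end only, with no score. The submitters' processing notes name mm9 as the build and list MACS2, HOMER, Picard and Bowtie2 (version 2.2.3) without saying what each was used for. Whether libraries were pooled before peaks were called, at what threshold and with which input is not given in the sources used here. Peaks reached past the end of the last annotated gene of GRCm38 on 9 of 20 chromosomes, so the GRCm38 gene table supplied no gene names.

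Overlaps, widths (end minus start), midpoints and edge distances were computed with Python 3.11.15, numpy 2.4.6, scipy 1.17.1 and pandas 2.3.3. bedtools 2.31.1 gave the same 7280 one-to-one sites on all chromosomes and the same 1428 members. The procedures were tested on simulated lists. A state-only peak overlaps no interval of the other list. The members, limits and measures were chosen with earlier results of these data known. Named regions are the 5 members with the widest narrower interval, the 5 with the largest and the 5 with the smallest offset (ties by position), the 5 most isolated, the 5 longest runs within 20 kb (by members, then shorter span), the 5 windows of 1 Mb with the most members (ties kept), and the 3 autosomes with the highest and lowest share. Planned readings of promoters, gene lists and the CTCF motif were not run without an mm9 reference. Alternatives changed the overlap, the width limits, the offset measure, the neighbour, the distance, the window size and the chromosomes.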

Additional observations from a re-analysis of the deposited data

How the results depend on the processing

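Of 26 values recomputed under an alternative, 18 stayed within the set limits (1.5 times a count, or the interval of the reported value), 7 moved and 1 reversed. The number of wide shared sites went from 1428 to 471 with the widest 20% of one-to-one partners in each list (472 and 498 bp), and ran from 994 to 2024 under the other alternatives. The reported difference in median offset, 12 bp, became 21 bp with the widest 20%, and 19.5 bp against sites narrow in both lists. As a percentage of the mean width it turned to -1.67 percentage points. The ratio of median distances to the next one-to-one site, other over wide, was 1.29 and ran from 1.19 to 1.36. The difference in state-only peaks within 10 kb, 3.01 percentage points, ran from 1.32 to 4.19, and its interval included 0 at 5 kb and with the widest 20%. Autosomes whose interval excluded the overall share went from 1 to 0 with the widest 20% and to 2 (chromosomes 1 and 3) with limits at the medians. Of the 8 richest windows, 3 met a richest window of 500 kb and 3 one of 2 Mb. For all of these changes the cause was not tested. Comparisons with equal weight for each autosome or with sites narrow in both were chosen after seeing the data. A stricter calling threshold could not be set without scores, and the motif and promoter alternatives were not run. No paired analysis was possible because the lists hold nothing per library, so leaving out a library was not possible either. Unknown depth limits every statement on width and on state-only peaks.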

Other observations

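On the X chromosome, which the report leaves out, 7 of 101 one-to-one sites (6.93%) met both width limits, against 19.9% on the autosomes. The X share rests on 7 sites, no interval was computed for it, and the difference was not tested.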
